A study of Saccharomyces cerevisiae with 2 samples.

Results

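The 37 genes described here encode the enzymes that carry glucose carbon through glycolysis and fermentation (21 genes) and through the tricarboxylic acid (TCA) cycle (16 genes) in Saccharomyces cerevisiae. They were chosen by function, by matching the systematic open reading frame names of the array to gene symbols, and all 37 were among the 6207 open reading frames on it. The study exposed a mutant given as msn2/4 to zymolyase, a preparation of wall-lytic enzymes that break down the glucan around the yeast cell. Msn2 and Msn4 are transcription factors of the general stress response. A culture in rich medium (YEPD) at 24 °C was divided, 5 units per ml of Zymolyase 100T went into one part, and both parts were collected at 3 hours. The treated and the untreated group therefore shared the msn2/4 mutation, and the strain background and the deletion alleles are not given in the sources used here. The design text gives 1 culture for this mutant, while the note on each sample speaks of more, and the design text was followed.

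Glycolysis splits glucose into pyruvate, and yeast on ample glucose turns most of that pyruvate into ethanol through pyruvate decarboxylase and alcohol dehydrogenase. The TCA cycle oxidises acetyl-CoA in the mitochondrion, and its genes are repressed while glucose is plentiful. Several steps have more than 1 gene, either isoenzymes that differ in when they are made or subunits of 1 complex. Msn2 and Msn4 are known to raise a part of the carbohydrate genes in stressed wild-type cells, among them HXK1 and GLK1.

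Two-colour arrays measured the ratio of the 2 RNA extracts, once with the zymolyase extract in Cy3 and the untreated extract in Cy5 (array 1) and once with the dyes exchanged (array 2). Both arrays carried the same pair of extracts, so they make up 1 replicate, the conditions could not be tested and p-values are absent. All values are log2 ratios, and each ± is the SD over the 2 hybridisations (n = 2 arrays), which covers hybridisation and dye error but leaves out variation among cultures. Spot signals are not in the table, so the brightness behind a ratio is unknown. Its medians were -0.38 on array 1 and 0.40 on array 2. The sign of array 2 was turned, because the labels give the arrays opposite dyes and because 8 of 8 cell wall genes read for the treatment (SLT2, KDX1, YPS3, PIR3, SED1, CWP1, CRH1 and GFA1) had opposite signs in the deposited columns. After the turn those 8 genes ranged from 2.32 to 4.08 on array 1 and from 1.28 to 4.07 on array 2. The turn was chosen with earlier results of these data known, and after it 60.2% of all genes had opposite signs on the arrays. The numerator and the centring of the ratios stay unstated. Positive ratios are likely zymolyase over untreated, from the published induction of cell wall genes by zymolyase, and with the other numerator every sign below would turn. Across all 2254 genes with a ratio on both arrays, the turned arrays correlated negatively (Pearson's r = -0.19, Spearman's rho = -0.31, across genes, which are not independent), so a mean over the arrays is described here together with both of its values. MSN2 and MSN4 had no ratio on either array.

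Of the 37 genes, 31 had a ratio on both arrays (83.8%, against 36.3% of all open reading frames). LPD1 and SDH2 had one on array 2 alone, and PYK2, CIT3, SDH1 and SDH4 had none. Which filter left genes without a value was not stated. The median of the mean ratio was 0.05 for the 20 measured glycolytic and fermentative genes and 0.69 for the 11 measured TCA cycle genes, against -0.37 for all genes. Relative to the all-gene median, these were 0.42 and 1.05. Of the 31, 28 lay above the all-gene median, and the 3 that did not were PFK1, KGD2 and SDH3.

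A gene is called positive or negative here if the mean reached 2-fold (a log2 ratio of 1) and both arrays had one sign. By that rule 2 of the 31 genes were positive, CIT1 and ACO1 (6.45%), against 2.88% of all genes. No member was negative, against 13.6% of all genes. At 1.5-fold 8 of the 31 were positive (25.8%, against 4.84% of all genes), namely 6 TCA cycle genes and the glycolytic and fermentative genes GLK1 and PDC1, and again none was negative, against 22.8%. The counts rested on array 1. With that array alone 6 TCA cycle and 7 glycolytic genes were at least 2-fold positive, against 12.2% of the genes valued there, and SDH3 was at least 2-fold negative, against 35.4%. With array 2 alone none of either list was, against 9.29%, and 2 glycolytic genes and 1 TCA cycle gene were at least 2-fold negative, against 25.9%. None of the 31 was 2-fold positive on each array (1.69% of all genes were) or 2-fold negative on each (4.61%). With array 2 as deposited, which sets the dyes in place of the conditions if the turn is right, 6 glycolytic genes were positive, against 12.3% of all genes, and SDH3 was negative, against 13.7%. Centring each array on its own median moved the all-gene median by 0.39 and made the same 8 members positive at 2-fold, against 5.41% of all genes, with none negative, against 7.14%. Centring also took the positive share of all genes called from 17.5% to 43.1%. It turned 10 members with small negative means positive (8 glycolytic genes, FUM1 and MDH1).

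**Figure D1:**
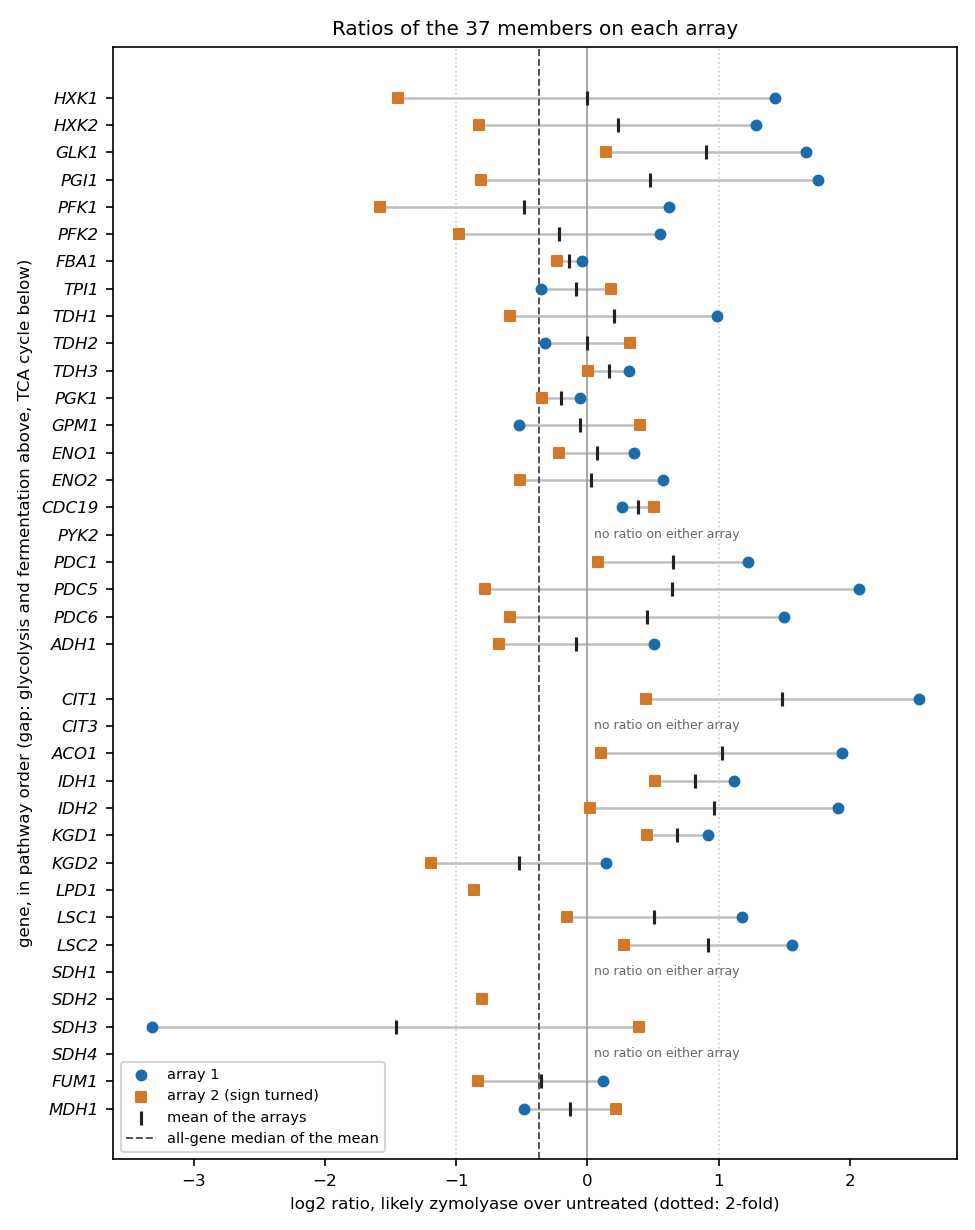
Log2 ratio of each of the 37 genes on array 1 (circles) and array 2 with its sign turned (squares), with the mean of the arrays as a bar, in pathway order. The dashed line is the all-gene median of the mean, -0.37, and the dotted lines mark 2-fold. CIT1, ACO1, IDH1, IDH2, KGD1 and LSC2 lie above 0 on both arrays, while most glycolytic genes have 1 array on each side of 0.

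The hexose kinases, which trap glucose in the cell as glucose 6-phosphate were led by GLK1. GLK1, glucokinase, had 1.67 on array 1 and 0.14 on array 2, a mean of 0.90 ± 1.08 (1.87-fold). HXK2, the hexokinase that dominates on glucose and takes part in glucose repression, had 1.29 and -0.82 (mean 0.23 ± 1.49). HXK1, the isoenzyme made when glucose runs low, had 1.43 and -1.44 (mean -0.0060 ± 2.03). GLK1 was thus the only one of the 3 with the same sign on both arrays, and it stood above both hexokinases within each array.

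Phosphoglucose isomerase and phosphofructokinase showed the arrays far apart. PGI1, which makes fructose 6-phosphate, had 1.76 and -0.81 (mean 0.47 ± 1.81). PFK1 and PFK2, the alpha and beta subunits of the phosphofructokinase that commits sugar to glycolysis, had 0.62 and -1.58 (mean -0.48 ± 1.56) and 0.55 and -0.98 (mean -0.21 ± 1.09). Both subunits were positive on array 1 and negative on array 2, and their means were the lowest of the glycolytic list.

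In the middle of the pathway the ratios were close to 0 on both arrays. FBA1, aldolase, had -0.045 and -0.23 (mean -0.14 ± 0.13), and PGK1, phosphoglycerate kinase, had -0.055 and -0.34 (mean -0.20 ± 0.20). These 2 genes were the only glycolytic genes negative on both arrays, and neither reached 1.5-fold on either. TPI1, triosephosphate isomerase, had -0.35 and 0.18 (mean -0.088 ± 0.37), and GPM1, phosphoglycerate mutase, had -0.52 and 0.40 (mean -0.060 ± 0.65). Relative to the all-gene median these 4 means lay between 0.17 and 0.31 above it.

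Glyceraldehyde-3-phosphate dehydrogenase is made from 3 genes, TDH3 being the main one in growing cells and TDH1 the one linked to stress and stationary phase. TDH3 had 0.32 and 0.0075 (mean 0.16 ± 0.22), TDH2 had -0.33 and 0.32 (mean -0.0012 ± 0.46) and TDH1 had 0.99 and -0.59 (mean 0.20 ± 1.12). The 3 means lay within 0.20 of each other, but the single arrays did not: TDH1 minus TDH2 was 1.32 on array 1 and -0.92 on array 2. The means of the enolase genes were also close: ENO1 had 0.36 and -0.21 (mean 0.071 ± 0.40), and ENO2, the form favoured on glucose, had 0.57 and -0.52 (mean 0.028 ± 0.77). TDH2 and TDH3, ENO1 and ENO2, and the PDC genes are similar genes that an array of this kind may not fully separate, and the probe sequences were not used here.

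At the exit from glycolysis, CDC19, the main pyruvate kinase, had 0.26 on array 1 and 0.51 on array 2, a mean of 0.39 ± 0.17 (1.31-fold). It was 1 of 4 glycolytic and fermentative genes positive on both arrays, with GLK1, TDH3 and PDC1, and among these 4 it had the smallest SD. PYK2, the minor pyruvate kinase of low glycolytic flux, had no ratio.

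The 3 pyruvate decarboxylase genes, which open the ethanol branch, had similar means. PDC1, the main form, had 1.23 and 0.08 (mean 0.65 ± 0.81), PDC5 had 2.07 and -0.78 (mean 0.64 ± 2.02), and PDC6, a form of little activity on glucose, had 1.499 and -0.59 (mean 0.45 ± 1.48). PDC1 alone kept the same sign on both arrays, and PDC5 missed the 1.5-fold count only through its opposite signs. ADH1, the alcohol dehydrogenase that makes ethanol, had 0.51 and -0.68 (mean -0.086 ± 0.84). The pyruvate decarboxylases thus stood above the step that follows them in the means, and on array 2 PDC5 lay below ADH1.

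The first steps of the TCA cycle held the highest means of the 31 genes, though on single arrays PDC5 was above ACO1 (array 1) and CDC19 above CIT1 (array 2). CIT1, the mitochondrial citrate synthase that brings acetyl-CoA into the cycle, had 2.52 on array 1 and 0.45 on array 2, a mean of 1.49 ± 1.47 (2.80-fold). ACO1, the mitochondrial aconitase, had 1.94 and 0.10 (mean 1.02 ± 1.30, 2.03-fold). Both were positive on each array, and on array 2 neither reached 1.5-fold.

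IDH1 and IDH2 are the subunits of the NAD-dependent isocitrate dehydrogenase. IDH1 had 1.12 and 0.52 (mean 0.82 ± 0.42), and IDH2 had 1.91 and 0.02 (mean 0.97 ± 1.33). KGD1, the first component of the 2-oxoglutarate dehydrogenase complex, had 0.92 and 0.45 (mean 0.69 ± 0.33). IDH1 and KGD1 had the smallest SDs of the measured TCA cycle genes and were the most alike on the 2 arrays.

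The other components of the 2-oxoglutarate dehydrogenase complex did not share the ratio of KGD1. KGD2, its succinyltransferase, had 0.15 and -1.19 (mean -0.52 ± 0.95). LPD1, the lipoamide dehydrogenase that this complex shares with pyruvate dehydrogenase, had -0.86 on array 2, its only value. Succinyl-CoA ligase followed, with LSC2, the beta subunit, at 1.56 and 0.28 (mean 0.92 ± 0.91) and LSC1, the alpha subunit, at 1.18 and -0.16 (mean 0.51 ± 0.94).

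From succinate onwards the means of the arrays were below 0, as was the all-gene median. SDH3, a membrane anchor of succinate dehydrogenase, had -3.32 on array 1 and 0.40 on array 2 (mean -1.46 ± 2.63), the largest SD among the members. SDH2, the iron-sulphur subunit, had -0.81 on array 2 alone. FUM1, fumarase, had 0.12 and -0.83 (mean -0.36 ± 0.67), and MDH1, the mitochondrial malate dehydrogenase, had -0.49 and 0.21 (mean -0.14 ± 0.50). For SDH3, FUM1 and MDH1 the 2 arrays had opposite signs. Relative to the all-gene median of -0.37, the means were -1.09 for SDH3, 0.01 for FUM1 and 0.23 for MDH1.

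Split after the values were seen, the 8 measured genes from citrate synthase to succinyl-CoA ligase had a median of 0.87. The 3 from succinate dehydrogenase to malate dehydrogenase had one of -0.36, close to the -0.37 of all genes. The difference lay on array 1, where the medians were 1.37 and -0.49, and was not seen on array 2, where they were 0.19 and 0.21. The 6 genes of the first stretch that passed 1.5-fold ranked between percentiles 85.9 and 98.9 of all genes valued on array 1. On array 2 they ranked between percentiles 66.4 and 80.9. They were picked by a high mean and positive signs on both arrays, so high ranks follow in part from the rule. Of the same stretch, KGD2 ranked at percentile 63.6 on array 1 and 20.2 on array 2, and LSC1 at 90.9 and 60.0.

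**Figure D2:**
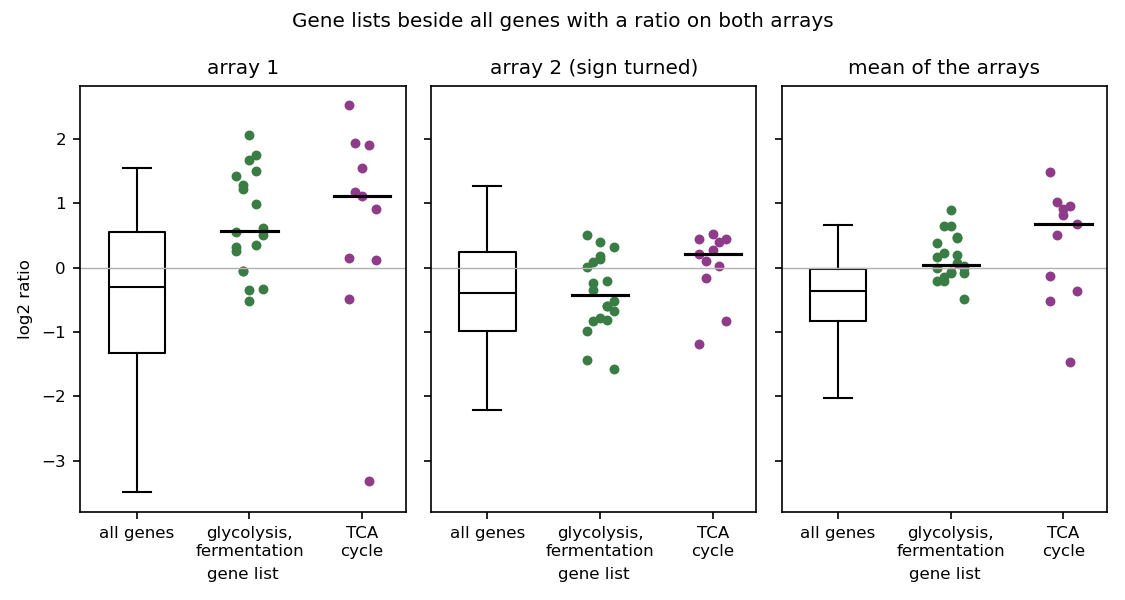
Log2 ratios of the 20 glycolytic and fermentative genes and the 11 TCA cycle genes with a ratio on both arrays (points, with the list median as a bar), beside a box plot of all 2254 genes (box at the quartiles, whiskers at percentiles 5 and 95), on array 1, array 2 with its sign turned, and the mean. The TCA cycle median lies above the glycolytic one on array 1 (1.12 against 0.56) and on array 2 (0.21 against -0.43), and the points of the lists overlap.

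Set against each other, the TCA cycle median was 0.55 above the glycolytic median on array 1 (1.12 against 0.56) and 0.64 above it on array 2 (0.21 against -0.43). A difference within an array does not depend on how that array was centred. Over all 13 TCA cycle genes valued on array 2, with LPD1 and SDH2, that median was 0.10 and the difference 0.53. On the mean of the arrays the difference of the list medians was 0.64. The SD of the 2 single-array differences, 0.55 and 0.64, was 0.065. The lists overlapped: of the 220 pairs of 1 TCA cycle and 1 glycolytic gene, the TCA cycle gene was higher in 56.4% on array 1, in 71.4% on array 2 and in 41.8% on both. The difference shrank to 0.21 when list means replaced medians and to 0.31 over the 12 members whose arrays differed by at most 1. Without SDH3 the difference of the list means was 0.39. With array 2 as deposited the difference of medians was 0.059, since the array 2 difference then has the opposite sign.

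The glycolytic list sat high on array 1 and in the middle of array 2. On array 1, 17 of the 20 lay above the all-gene median of that array, and on array 2, 10 of the 20 did. For the TCA cycle it was 9 of 11 on each array. Opposite signs on the arrays were found for 14 of the 20 glycolytic genes (70.0%) and 5 of the 11 TCA cycle genes (45.5%), against 60.2% of all genes. Both arrays were positive for 4 of 20 (20.0%) and 6 of 11 (54.5%), against 7.85% of all genes.

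Isoenzymes and subunits of 1 step were compared within each array, which leaves the centring out. Of 14 pairs with both genes measured, 4 differed in the same direction on both arrays (28.6%), against 38.9% of all pairs of genes on these arrays, and the other 10 changed order between the arrays. GLK1 was higher than HXK1 by 0.24 on array 1 and 1.58 on array 2 (mean difference 0.91 ± 0.95). GLK1 was higher than HXK2 by 0.38 and 0.96 (0.67 ± 0.41). These were the only 2 of the 10 isoenzyme pairs with a shared direction.

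Among the 4 subunit pairs 2 had one. KGD1 was higher than KGD2 by 0.77 and 1.65 (1.21 ± 0.62, 2.31-fold), the largest mean difference of the 14 pairs. LSC2 was higher than LSC1 by 0.38 and 0.43 (0.41 ± 0.037), the closest match between the arrays. The subunits of phosphofructokinase and of isocitrate dehydrogenase changed order between the arrays, with PFK2 minus PFK1 at -0.068 and 0.60 and IDH2 minus IDH1 at 0.79 and -0.49. So did the TDH, ENO and PDC genes, of which PDC1 minus PDC5 went from -0.84 to 0.87. With array 2 as deposited the means of the 4 pairs with a shared direction turned, to -0.67 for GLK1 minus HXK1, -0.29 for GLK1 minus HXK2, -0.44 for KGD1 minus KGD2 and -0.026 for LSC2 minus LSC1.

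**Figure D3:**
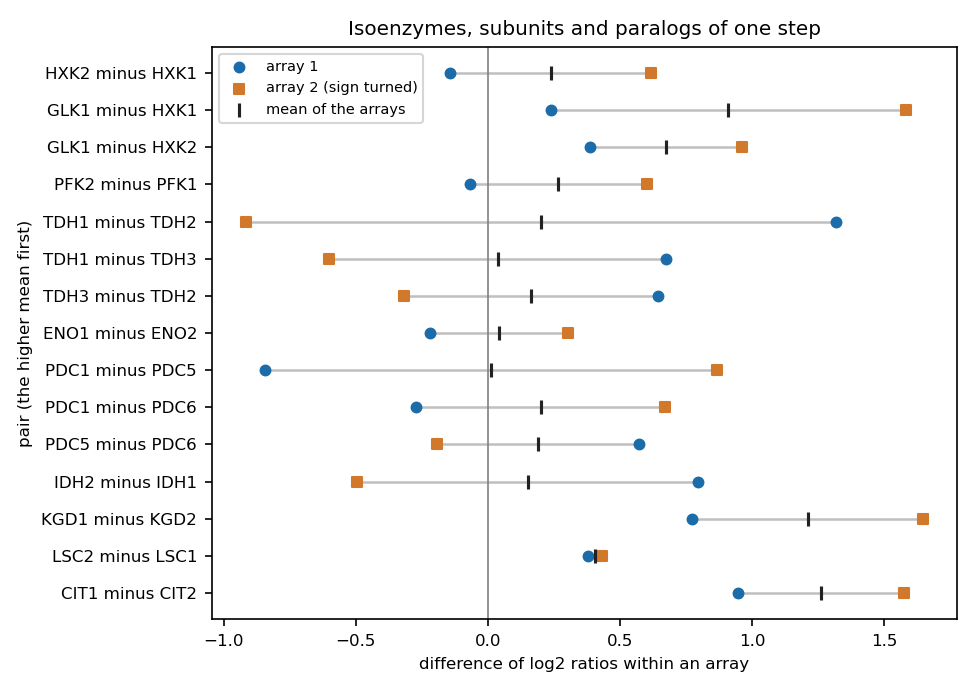
Difference of the log2 ratios of 2 genes of 1 step within array 1 (circles) and array 2 (squares), and the mean of both (bars), with the gene of the higher mean named first. The bottom row holds CIT1 minus CIT2, paralogs added after their values were seen. A second pair added in the same way, PYC2 minus PYC1, is not drawn. It changed order between the arrays (-0.76 and 0.92). GLK1 over both hexokinases, KGD1 over KGD2, LSC2 over LSC1 and CIT1 over CIT2 lie on 1 side of 0 on both arrays once the sign of array 2 is turned.

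Neighbouring genes of central carbon metabolism outside the 37 were described in 5 lists. Of 41 measured genes in these lists none was positive at 2-fold (2.88% of all genes were) and 3 were negative (13.6% of all genes). In gluconeogenesis and the glyoxylate cycle 5 of 12 genes were measured on both arrays, with a median of -0.23 and none past the rule, while FBP1, PCK1, ICL1 and MLS1, which glucose represses, had no ratio. The largest absolute means were those of DIC1, the mitochondrial dicarboxylate carrier, at -1.65 and 0.76 (mean -0.44 ± 1.70), and MDH2, the cytosolic malate dehydrogenase, at -0.49 and -0.31 (mean -0.40 ± 0.12). CIT2, the peroxisomal citrate synthase, had 1.58 and -1.13 (mean 0.22 ± 1.91), and the difference between CIT1 and CIT2 was 0.95 and 1.58 (its mean was -0.31 with array 2 as deposited). A second pair of paralogs added after their values were seen, the pyruvate carboxylases, changed order, with PYC2 minus PYC1 at -0.76 and 0.92.

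The 3 negative genes of these lists were ADH4, an alcohol dehydrogenase isoenzyme, MPC3, a subunit of the mitochondrial pyruvate carrier, and PDC2, a transcription factor needed for PDC1 and PDC5. ADH4 had -0.91 and -1.10 (mean -1.01 ± 0.14), MPC3 had -2.01 and -0.41 (mean -1.21 ± 1.13) and PDC2 had -5.13 and -0.19 (mean -2.66 ± 3.49). ADH4 was the one whose arrays were close, and PDC2 rested on array 1. The medians were -0.084 over 9 genes of alcohol and acetate metabolism, -0.25 over 10 of the pyruvate dehydrogenase and pyruvate carboxylase list, and -0.80 over 9 regulators of glycolysis and respiration.

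In the pentose phosphate pathway, which branches from glucose 6-phosphate, none of 8 measured genes passed the rule, and the median was -0.024. The members with the largest absolute means were SOL3, a phosphogluconolactonase, at -1.33 and 0.10 (mean -0.61 ± 1.01), and GND2, the minor phosphogluconate dehydrogenase, at 0.39 and -1.13 (mean -0.37 ± 1.07). The TCA cycle median of 0.69 stood above those of the 5 neighbouring lists in the mean of the arrays.

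Among the regulators, RTG2, which acts in the retrograde pathway of cells with impaired respiration, had 0.38 and -3.44 (mean -1.53 ± 2.70). RTG1 and RTG3 had no ratio, nor had HAP3, HAP4 and HAP5 of the activator of respiratory genes. GCR1, GCR2 and RAP1, which are among the activators of glycolytic genes, had none either. Other regulators of the list were measured, among them TYE7 at -2.73 and 0.24 (mean -1.24 ± 2.10). REB1 had -1.97 and 0.19 (mean -0.89 ± 1.53), and HAP1 had 0.96 and -1.23 (mean -0.13 ± 1.55). HAP2 had -0.70 on array 2 alone. Negative on both arrays, besides PDC2, were SNF1 (-0.82 and -0.41), SNF4 (-0.14 and -0.58) and REG1 (-0.87 and -0.42). All 9 regulators measured on both arrays had a negative mean, while 24% of all genes had a positive one. CIT2, RTG2, HAP2, TYE7, REB1, HAP1, SNF1, SNF4, REG1 and the unmeasured genes of these lists were named after their values were seen.

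The signed difference between the arrays (array 1 minus array 2) followed gene length, taken from the RefSeq table of assembly R64. The half-difference of the arrays, in which a difference between the conditions cancels and one between the dyes stays if the turn is right, correlated with length across all genes (rho = 0.46, 2174 genes) and across the 31 members (rho = 0.59), and the points share the same 2 hybridisations. The mean of the arrays had rho = 0.03 over all genes and 0.26 over the members. Of the 31, 25 were higher on array 1 than on array 2, against 52.3% of all genes. The 6 that were lower on array 1 were SDH3 (597 bp), GPM1 (744 bp), TPI1 (747 bp), TDH2 (999 bp), MDH1 (1005 bp) and CDC19 (1503 bp). The median half-difference was 0.58 for glycolysis and 0.64 for the TCA cycle, against 0.07 for all genes. Median lengths were 1386 and 1284 bp, against 1254 bp for all genes. The part of length or dye in the single means was not tested.

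**Figure D4:**
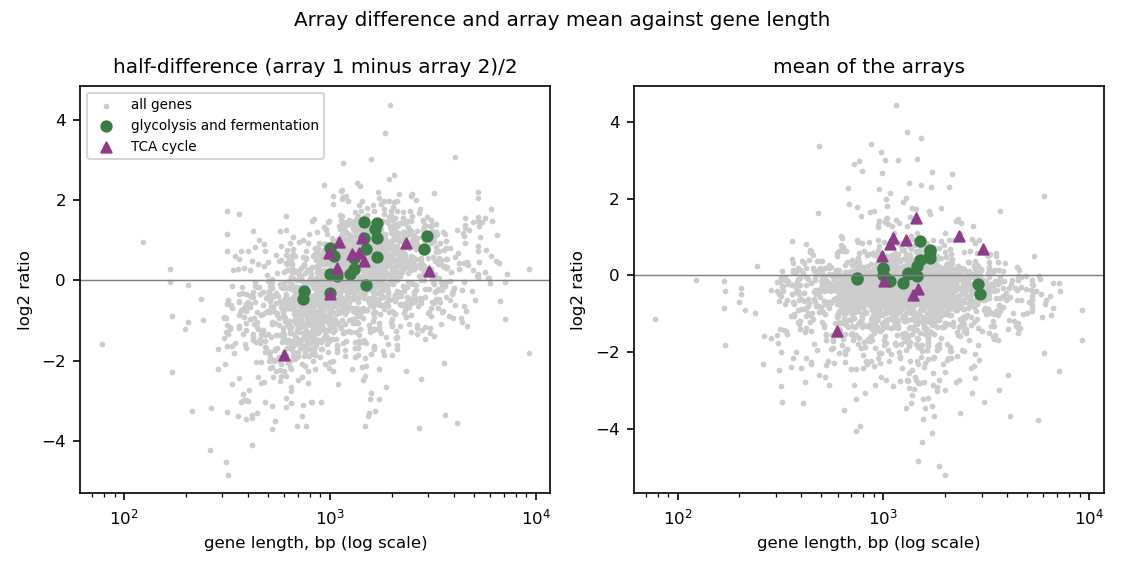
Half-difference of the arrays (left) and mean of the arrays (right), both as log2 ratios, against gene length in bp on a log scale, for all genes (grey), glycolysis and fermentation (circles) and the TCA cycle (triangles). The half-difference climbs with length for all genes (rho = 0.46), the members lying mostly above 0, while the mean shows no such slope over all genes (rho = 0.03).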

How the data were processed

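Total RNA of 1 zymolyase-treated and 1 untreated part of a culture was compared on 2 two-colour arrays with exchanged dyes, per the labels. The authors deposited 1 log2 ratio per gene and array, with no signals, and scanner, background correction, normalization, filter and centring are not given in the sources used here. The log base was read from the values: all 387 values under -2 on array 1, and all 239 over 2 on array 2 once their sign was turned, were the log2 of a ratio in steps of 0.0001, within rounding. Of 6209 rows 2 control spots were left out. Symbols came from a RefSeq table of assembly R64 by locus tag (5654 of 6207 matched). Array 2 was turned, and mean and SD over the arrays were computed per gene with pandas 2.3.3 and numpy 2.4.6 under Python 3.11.15, with no pseudocount or filter. The steps were tested on simulated data with a set noise and with the turn built in. That test checks the code and cannot show whether the turn or the calls hold here. The rule named every member, up to 4 genes past 2-fold of each neighbouring list (otherwise the 2 with the largest absolute mean), and the cell wall genes. The members, the lists and the turn were chosen with earlier results of these data known. Planned comparisons of promoters and isoenzyme proteins were not made, since no sequences were used here. 1 gene was left out of the neighbouring lists and their counts and is not reported here.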

Additional observations from a re-analysis of the deposited data

How the results depend on the processing

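With 1 pair of extracts, the spread over the arrays covers hybridisation and dye error and leaves out variation among cultures. The turn of array 2 is an assumption. The TCA cycle minus glycolysis difference of medians (0.64) stayed positive under each setting tried with array 2 turned. With array 2 as deposited it was 0.059, near 0, and the difference on array 2 alone has the opposite sign there. The other settings gave 0.79 after centring and rescaling, 0.31 with arrays within 1 of each other, 0.53 to 0.55 from 1 array alone (for array 2 with LPD1 and SDH2 added), 0.21 with means, 0.39 with means without SDH3 and 0.82 with only citrate synthase to succinyl-CoA ligase (the last 2 settings were added after seeing the data). The TCA cycle median (0.69) was 1.32 after centring and rescaling, 0.27 over the 4 of its genes with arrays within 1, and 0.10 to 1.12 from 1 array alone, and the glycolytic median (0.05) was -0.43 to 0.56 from 1 array alone and -0.031 over the 8 of its genes with arrays within 1. Positive glycolytic genes (0) numbered 2 at 1.5-fold, 6 with array 2 as deposited, 2 after centring and 0 to 7 from 1 array alone. Positive TCA cycle genes (2) numbered 6 at 1.5-fold, 0 with 2-fold on each array, 0 with array 2 as deposited, 6 after centring and 0 to 6 from 1 array alone. Negative genes (0 in both lists) numbered 1 in the TCA cycle with array 2 as deposited, 1 there from either array alone, and 0 to 2 in glycolysis from 1 array alone. With array 2 as deposited 9 of the 31 member means changed sign, 7 glycolytic (HXK1 to 1.44, PFK1 to 1.10, PFK2 to 0.77, FBA1 to 0.093, PGK1 to 0.14, CDC19 to -0.12 and ADH1 to 0.59) and 2 of the TCA cycle (KGD2 to 0.67 and FUM1 to 0.47), none of which had passed 2-fold. Of the named genes called positive or negative outside the members, ADH4 (0.096), YPS3 (-0.50) and CWP1 (-0.57) changed sign. RTG2, not called because its arrays had opposite signs, went from -1.53 to 1.91. The cause of these changes was not tested, but a turned-back array 2 reverses its own part of each value by construction.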
